A study of Mus musculus with 30 samples.

Results

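Cells that secrete protein sense misfolded chains in the endoplasmic reticulum (ER) and return them to the cytosol for destruction, and the genes of this circuit were measured in the mouse ventral prostate (VP) after feeding on diets of 3 fats. The 10 genes were taken by symbol through their Ensembl identifiers: the sensors Ern1 and Ern2, the transcription factor Xbp1, the chaperone genes Dnajb9 and Sdf2l1, and the ER-associated degradation (ERAD) genes Herpud1, Edem1, Derl3, Syvn1 and Sel1l. They are 10 of the 39179 gene identifiers counted in each library. All except Ern2 had enough reads to be tested, which left 9 genes.

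The VP was collected from male C57BL/6 mice fed isocaloric AIN-93G growth diets whose fat was lard (PF), linseed oil (LO) or soybean oil (SO). Feeding lasted 12 or 32 weeks after weaning, and 5 mice made up each of the 6 groups, with 1 library per mouse. Time on the diet and the age of the animal cannot be told apart in this design. In the order LO, SO and PF, the median mouse had 35390110, 33483999 and 36807997 read pairs counted in genes at 12 weeks, and 32039478, 31532350 and 36874221 at 32 weeks. The lowest library held 27590631 pairs and the highest 41301707. Levels are given as counts per 1000000 (CPM) of a library size scaled by the trimmed mean of M values (TMM). Mice carry the numbers 1 to 5 within a group, as in the sample labels, and values are listed in that order.

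IRE1, the product of Ern1, is an ER membrane protein whose kinase and endonuclease domains face the cytosol. Once active, it removes a short stretch from the Xbp1 messenger, the tRNA ligase RTCB joins the ends, and the longer reading frame encodes the active transcription factor. XBP1 and ATF6 raise genes for chaperones and for the ERAD machinery, in which EDEM1 reads trimmed glycans and the ubiquitin ligase SYVN1, held by SEL1L and served by HERPUD1 and derlins, passes substrates out of the ER. The product of Ern2 is the form of the sensor found in mucus-secreting epithelia.

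Markers of the VP were abundant in all libraries. All 10 markers of prostate luminal epithelium passed the filter, led by the secretory gene Sbp at 76850 to 269081 CPM, whereas 0 of 8 seminal vesicle markers did, with Svs3b at 0.131 CPM at most and Svs6 at 0 in every mouse. Pbsn, which leads the 3 markers of the other prostate lobes, stood at 123 to 7530 CPM. The sum of these 3 markers was lowest at 12 weeks in LO mouse 2 (668 CPM) and SO mouse 5 (998 CPM). In this whole tissue, fewer cells of a type and less RNA per cell cannot be told apart. Libraries of mice with number 1 stood apart for several members: Sdf2l1 was the highest of its group in mouse 1 in 6 of 6 groups, Syvn1 in 4 and Derl3 in 3, whereas Xbp1 and Edem1 were lowest there in 4 groups, and Ern1 and Sel1l in 3. Among the other numbers, Dnajb9 was highest in mouse 5 in 4 of 6 groups, and Sdf2l1 was lowest in mouse 4 in 4. Mouse 1 of the PF group at 32 weeks was the least like its own group over all genes (mean r with the others 0.9643).

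Per kilobase of exon, Herpud1 was the most abundant member and was above Xbp1 in 30 of 30 mice (medians 185 and 114 CPM per kilobase). Sdf2l1 followed at 74.1 CPM per kilobase and was above the ERAD subunit Derl3, at 39.1 CPM per kilobase, in all 30 mice. Xbp1 was above Sdf2l1 in 27 of 30 mice. Derl3 was above Edem1 (37.8 CPM per kilobase) in 19 of 30 mice, and Dnajb9 (28.3) was above Syvn1 (26.4) in 20. Syvn1 in turn was above Sel1l (26.2) in 13. The sensor Ern1 was lower, at 19.9 CPM per kilobase, and Ern2 was near absence at 0.0148.

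**Figure D1:**
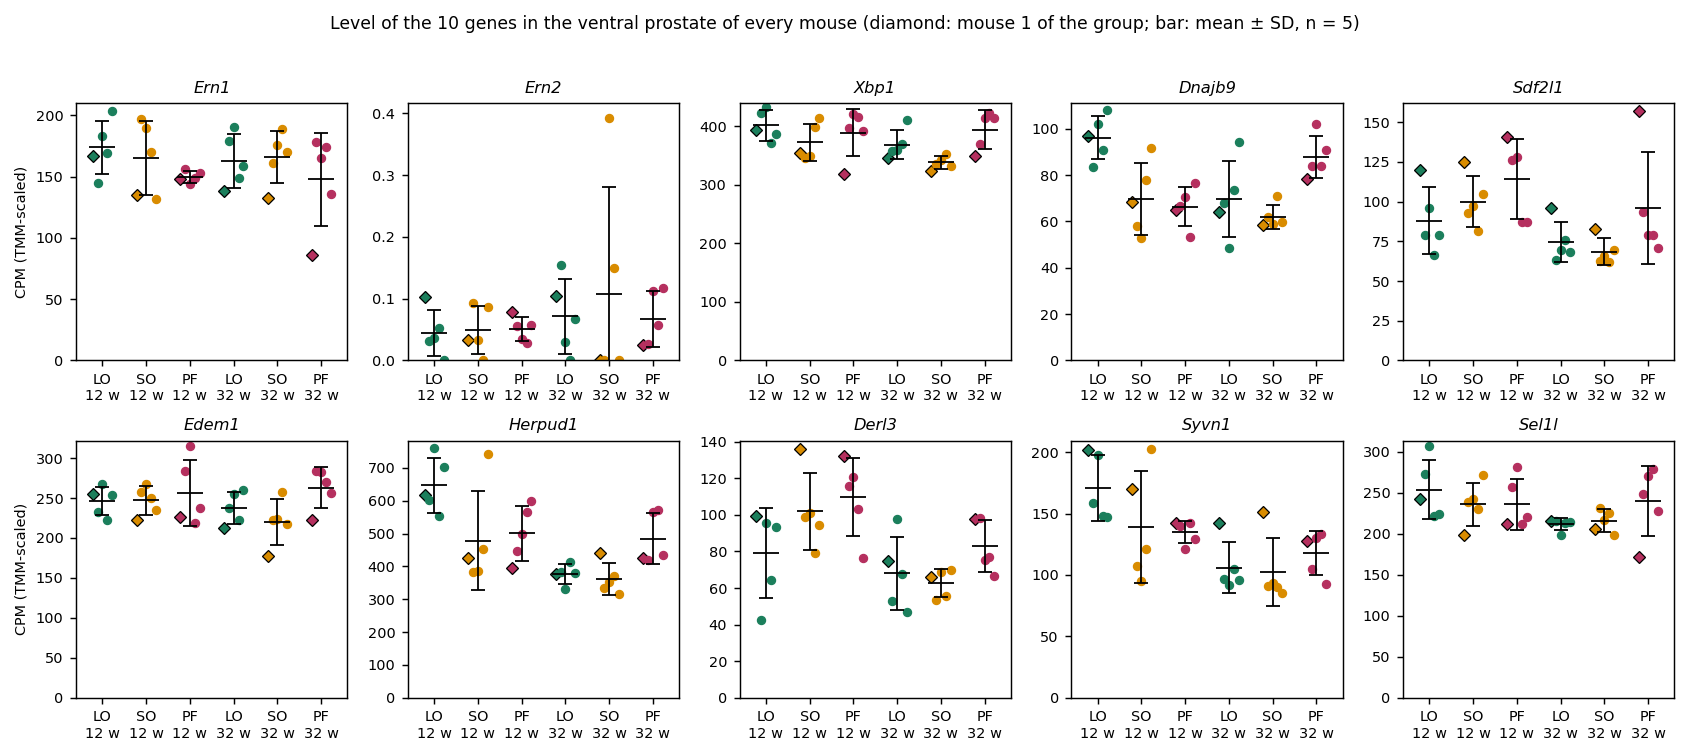
Level of each of the 10 genes (y axis, CPM scaled by TMM) in each mouse of the 6 groups (x axis, diet and weeks). Points are mice, diamonds mark mouse 1, and bars give the mean ± SD of 5 mice; Dnajb9 lay at 83.6 to 108 CPM in LO mice at 12 weeks and at 78.3 to 102 CPM in PF mice at 32 weeks, while Ern2 stayed at 0.393 CPM or lower.

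Ern1 was expressed in every mouse. At 12 weeks its level was 167, 145, 183, 169 and 204 CPM in the LO group, 135, 197, 190, 170 and 132 CPM in the SO group, and 148, 156, 144, 149 and 153 CPM in the PF group. At 32 weeks it was 138, 179, 191, 149 and 159 CPM in the LO group, 133, 161, 176, 189 and 170 CPM in the SO group, and 86.4, 178, 165, 174 and 136 CPM in the PF group. The 3 diets overlapped at both ages, and PF mouse 1 at 32 weeks held the lowest value of all. Between PF and SO at 32 weeks the log2 fold change of Ern1 was −0.15 (SE 0.158; edgeR quasi-likelihood test, Benjamini-Hochberg adjusted p = 0.761), and it was −0.02 without that mouse. From 12 to 32 weeks Ern1 differed by −0.09 in LO, 0.01 in SO and −0.02 in PF on the log2 scale.

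Ern2 was close to absence. It had 68 counts over the 30 libraries, 0 in 6 mice and 3 counts or fewer in 24. The highest library, SO mouse 3 at 32 weeks, had 14 counts, which is 0.393 CPM, and 3 counts corresponded to between 0.075 and 0.113 CPM. At 32 weeks the counts were 4, 6, 1, 0 and 2 in the LO group, 0, 0, 14, 5 and 0 in the SO group, and 1, 1, 3, 2 and 4 in the PF group. Ern2 did not pass the expression filter, and no fold change is given for it.

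Xbp1 was among the more abundant members and varied little between mice. At 12 weeks Xbp1 was at 393, 423, 433, 371 and 386 CPM in the LO group, 354, 346, 349, 398 and 414 CPM in the SO group, and 319, 397, 420, 415 and 392 CPM in the PF group. At 32 weeks it was at 346, 357, 359, 369 and 410 CPM in the LO group, 324, 336, 342, 353 and 332 CPM in the SO group, and 349, 370, 414, 423 and 413 CPM in the PF group. At 32 weeks the SO mice had the lowest mean, with PF mouse 1 and LO mouse 1 inside their range. The log2 fold change between PF and SO at 32 weeks was 0.24 (SE 0.062), a ratio of 1.18, with an edgeR quasi-likelihood, Benjamini-Hochberg adjusted p of 0.278. The Wald test of DESeq2, the tool the study had used, gave an adjusted p of 0.0298 for Xbp1, and over the 28 alternatives the adjusted p in edgeR or DESeq2 went from 0.00287 to 0.587.

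IRE1 acts on Xbp1 through a stretch of 26 bases in exon 4, shown in capitals because its removal defines the active form: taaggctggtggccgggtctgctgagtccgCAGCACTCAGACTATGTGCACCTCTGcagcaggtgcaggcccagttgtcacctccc. The window lies on the + strand at chr11:5524249-5524334 and the excised bases at chr11:5524279-5524304 (GENCODE M21, GRCm38). Removal changes the open reading frame of transcript Xbp1-201 from 267 to 371 codons. Both forms contribute to a gene count, so the values of Xbp1 given here are the sum of spliced and unspliced messengers, and the activity of IRE1 was not measured.

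Dnajb9, which encodes an ER-resident partner of the chaperone BiP, had its highest mean in a different diet at each age. At 12 weeks its level was 96.8, 83.6, 102, 90.8 and 108 CPM in the LO group, 68.2, 57.9, 53, 77.9 and 91.9 CPM in the SO group, and 65, 66.6, 70.6, 53.3 and 76.4 CPM in the PF group. At 32 weeks it was 64.1, 68, 48.6, 73.4 and 94.5 CPM in the LO group, 58.3, 61.9, 58.8, 70.8 and 59.6 CPM in the SO group, and 78.3, 83.9, 102, 84.1 and 90.9 CPM in the PF group. LO mice had the highest mean at 12 weeks, with SO mouse 5 inside their range, and PF mice the highest at 32 weeks. Every PF mouse was below every LO mouse at 12 weeks, and every PF mouse was above every SO mouse at 32 weeks, whereas LO mouse 5 at 32 weeks lay inside the PF range.

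The log2 fold change of Dnajb9 between PF and SO at 32 weeks was 0.52 (SE 0.130), a ratio of 1.44, and at 12 weeks it was −0.07. At 32 weeks the edgeR quasi-likelihood, Benjamini-Hochberg adjusted p was 0.278. DESeq2 gave an adjusted p of 0.0324 there, in a range of 0.0156 to 0.56 over 28 alternatives in edgeR and DESeq2. Between PF and LO the difference was −0.53 (SE 0.133) at 12 weeks and 0.35 (SE 0.129) at 32 weeks, with edgeR quasi-likelihood, Benjamini-Hochberg adjusted p of 0.325 and 0.475. For the 12-week difference DESeq2 gave an adjusted p of 0.0452, in a range of 0.00531 to 0.644 over 28 alternatives in edgeR and DESeq2, and 1 of 10 DESeq2 refits without a mouse held the call. In LO mice the level at 32 weeks was lower than at 12 weeks by a log2 fold change of −0.46 (SE 0.139; edgeR quasi-likelihood, Benjamini-Hochberg adjusted p = 0.0618). The side of the threshold depended on 1 library, on the tool and on the use of mouse number as a block. Without LO mouse 5 at 32 weeks the log2 fold change was −0.58 with an edgeR quasi-likelihood, Benjamini-Hochberg adjusted p of 0.033. The Wald test of DESeq2 with all mice gave 0.027, and the range over 17 alternatives in edgeR and DESeq2 was 0.0063 to 0.227. With mouse number as a block, edgeR (quasi-likelihood, Benjamini-Hochberg) gave an adjusted p of 0.0335.

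Sdf2l1, a further chaperone target of XBP1, was at 120, 78.7, 95.8, 66.7 and 78.8 CPM in the LO group at 12 weeks and at 125, 92.9, 97.2, 81.5 and 105 CPM in the SO group. The PF group had 141, 126, 128, 87.1 and 87.2 CPM at 12 weeks, the highest mean of the 6 groups (114 CPM). At 32 weeks it was at 96, 63.5, 69.3, 76.1 and 68.2 CPM in the LO group, at 82.7, 62.5, 65.5, 62.3 and 69.8 CPM in the SO group and at 157, 93.4, 79.2, 78.7 and 70.8 CPM in the PF group. PF mice had the highest mean at 32 weeks (95.9 CPM), with 3 of 5 PF values in the span of the SO mice. The log2 fold change of Sdf2l1 between PF and SO was 0.51 (SE 0.202; edgeR quasi-likelihood, Benjamini-Hochberg adjusted p = 0.41), and PF mouse 1 carried much of it: without this mouse the log2 fold change was 0.24. In SO mice Sdf2l1 was lower at 32 than at 12 weeks by −0.55 (SE 0.189; edgeR quasi-likelihood, Benjamini-Hochberg adjusted p = 0.0807). Without SO mouse 1 at 32 weeks the log2 fold change was −0.62 and the edgeR quasi-likelihood, Benjamini-Hochberg adjusted p was 0.0493. DESeq2 with all mice gave an adjusted p of 0.0487 for this difference, and the range over 17 alternatives in edgeR and DESeq2 was 0.000378 to 0.193. By the edgeR quasi-likelihood test with Benjamini-Hochberg adjustment, the adjusted p with time in SO was 0.00971 with mouse number as a block and 0.0216 with only the 2 groups compared. Between PF and SO at 32 weeks, DESeq2 with the block gave Sdf2l1 an adjusted p of 0.0231, in a range of 0.0231 to 0.627 over 28 alternatives in edgeR and DESeq2.

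Edem1 stood at 177, 223, 224, 257 and 218 CPM in the SO group at 32 weeks and at 223, 284, 282, 270 and 256 CPM in the PF group, with PF values the higher and the groups overlapping. The log2 fold change of Edem1 between these groups was 0.28 (SE 0.089), with an edgeR quasi-likelihood, Benjamini-Hochberg adjusted p of 0.362. DESeq2 with mouse number as a block gave an adjusted p of 0.0231, in a range of 0.0231 to 0.607 over 28 alternatives in edgeR and DESeq2. In the other 4 groups its mean was 246 (LO, 12 weeks), 247 (SO, 12 weeks), 256 (PF, 12 weeks) and 238 CPM (LO, 32 weeks).

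Herpud1 had the largest fall over time of the members in LO mice. In the LO group it was at 617, 602, 761, 554 and 702 CPM at 12 weeks and at 376, 384, 332, 414 and 379 CPM at 32 weeks, so that every older LO mouse was below every younger one. The SO mice had 425, 384, 385, 453 and 742 CPM at 12 weeks and 442, 334, 353, 371 and 315 CPM at 32 weeks. PF mice had 394, 446, 498, 567 and 598 CPM and, at 32 weeks, 427, 421, 567, 573 and 436 CPM, and their 2 age groups overlapped almost fully. Herpud1 fell with time in LO mice by a log2 fold change of −0.78 (SE 0.152; edgeR quasi-likelihood, Benjamini-Hochberg adjusted p = 0.0123), a ratio of 0.582. In SO mice the difference was −0.40 (SE 0.151; edgeR quasi-likelihood, Benjamini-Hochberg adjusted p = 0.12) and in PF mice −0.05. SO mouse 5 at 12 weeks carried much of the SO difference in Herpud1, which was −0.19 without it. This mouse also stood apart in markers of the other lobes, summed to 998 CPM beside 4541 to 7893 CPM in the other SO mice. Its adipocyte markers summed to 613 CPM beside 74 to 188 CPM, and the part of these tissues was not tested. At 32 weeks the log2 fold change of Herpud1 between PF and SO was 0.43 (SE 0.112), a ratio of 1.35, with an edgeR quasi-likelihood, Benjamini-Hochberg adjusted p of 0.278. DESeq2 gave an adjusted p of 0.0376 for it, and the range over 28 alternatives in edgeR and DESeq2 was 0.00458 to 0.56. Between PF and LO at 32 weeks it was 0.37 (SE 0.112; edgeR quasi-likelihood, Benjamini-Hochberg adjusted p = 0.357), and every PF mouse was above every LO mouse.

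The promoter of Herpud1 is shown because it holds the second form of the ER stress response element (ERSE), ATTGG, any base, then CCACG, at −52 to −42 from the start site (RefSeq, GRCm38.p6, + strand, chr8:94386179-94386478): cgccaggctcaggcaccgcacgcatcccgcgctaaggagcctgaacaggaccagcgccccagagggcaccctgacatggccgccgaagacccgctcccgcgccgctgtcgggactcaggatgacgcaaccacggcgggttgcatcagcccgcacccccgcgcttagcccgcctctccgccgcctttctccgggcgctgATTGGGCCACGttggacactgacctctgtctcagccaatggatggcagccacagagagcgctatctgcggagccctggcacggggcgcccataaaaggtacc. Each window ran from 250 bases before the start site to 50 bases from it, and this element was in 12 of 32851 such windows (0.0365%). These matches are descriptions of sequence, and binding was not measured.

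Derl3 encodes the derlin of secretory tissues. In the SO group it was at 136, 99.1, 101, 78.9 and 94.6 CPM at 12 weeks and at 66, 53.2, 68.7, 55.9 and 70.1 CPM at 32 weeks, with every older mouse below every younger one. The LO mice had 99.3, 42.7, 95.7, 64.2 and 93.4 CPM and, at 32 weeks, 74.6, 53.1, 97.9, 67.7 and 46.8 CPM, with overlap. PF mice had 132, 116, 121, 103 and 76.5 CPM and, at 32 weeks, 97.7, 98.5, 75.1, 77.1 and 66.4 CPM, lower for the most part but overlapping. Derl3 fell with time in SO mice by a log2 fold change of −0.70 (SE 0.205; edgeR quasi-likelihood, Benjamini-Hochberg adjusted p = 0.0384), a ratio of 0.616. This call rested on single libraries. Without SO mouse 1, 2, 3 or 5 at 12 weeks the edgeR quasi-likelihood, Benjamini-Hochberg adjusted p of Derl3 was 0.122, 0.057, 0.0625 and 0.0645, and without mouse 2, 3 or 4 at 32 weeks it was 0.0907, 0.0586 and 0.12. The log2 fold change in these refits stayed between −0.73 and −0.58.

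Syvn1, the ubiquitin ligase gene, was at 202, 159, 198, 148 and 147 CPM in the LO group at 12 weeks and at 142, 97, 91.5, 105 and 96.2 CPM at 32 weeks, with every older mouse below every younger one. The SO mice had 170, 107, 94.9, 121 and 203 CPM and, at 32 weeks, 151, 90.9, 93.8, 89.9 and 85 CPM, where mouse 1 was above 3 of the 5 younger mice. PF mice had 142, 140, 121, 142 and 129 CPM and, at 32 weeks, 128, 105, 130, 133 and 92.4 CPM, with overlap. Syvn1 fell with time in LO mice by a log2 fold change of −0.69 (SE 0.179; edgeR quasi-likelihood, Benjamini-Hochberg adjusted p = 0.0367), a ratio of 0.622. Without LO mouse 1, 2 or 3 at 12 weeks the edgeR quasi-likelihood, Benjamini-Hochberg adjusted p was 0.0735, 0.0814 and 0.117, and without mouse 2, 3 or 5 at 32 weeks it was 0.0716, 0.127 and 0.091, while the log2 fold change stayed between −0.69 and −0.60. The call of Syvn1 was also lost in edgeR (quasi-likelihood, Benjamini-Hochberg) with no filter (adjusted p = 0.0501) and with only the 2 groups compared (0.0676). In SO mice the difference was −0.44 (SE 0.179; edgeR quasi-likelihood, Benjamini-Hochberg adjusted p = 0.146), and without mouse 1 at 32 weeks it was −0.62 with an adjusted p of 0.0208. Without SO mouse 5 at 12 weeks it was −0.28. DESeq2 with mouse number as a block gave Syvn1 an adjusted p of 0.0332 with time in SO, in a range of 0.0208 to 0.444 over 17 alternatives in edgeR and DESeq2. Between PF and SO at 32 weeks the log2 fold change of Syvn1 was 0.22 (SE 0.176), and without SO mouse 1 it was 0.41.

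The promoters of Derl3 and Syvn1 are shown because they hold the first form of the ERSE, CCAAT, 9 bases, then CCACG. In Derl3 the element lies on the − strand at −156 to −138, so that the window on the + strand (RefSeq, GRCm38.p6, chr10:75893148-75893447) carries its complement: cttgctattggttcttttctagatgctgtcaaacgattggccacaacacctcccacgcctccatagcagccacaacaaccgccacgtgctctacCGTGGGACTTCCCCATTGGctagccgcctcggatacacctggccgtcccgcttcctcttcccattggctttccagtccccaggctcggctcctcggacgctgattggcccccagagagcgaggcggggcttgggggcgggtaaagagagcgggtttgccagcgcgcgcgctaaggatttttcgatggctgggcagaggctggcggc. In Syvn1 it lies on the + strand at −44 to −26 (RefSeq, GRCm38.p6, chr19:6046326-6046625): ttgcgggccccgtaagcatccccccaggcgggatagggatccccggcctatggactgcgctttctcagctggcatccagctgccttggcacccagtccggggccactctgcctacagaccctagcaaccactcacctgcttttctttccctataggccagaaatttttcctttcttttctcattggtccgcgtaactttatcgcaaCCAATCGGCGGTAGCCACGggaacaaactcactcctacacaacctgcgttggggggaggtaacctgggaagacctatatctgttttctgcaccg. This ERSE was in 39 of 32851 windows (0.119%) and in 2 of the 9 members with a window. The XBP1 core TGACGTGG was in 0 of 9 members and 0.676% of windows. CCACG alone, which is part of both forms of the ERSE, was in 8 of 9 members and 32.8% of windows.

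Sel1l, the scaffold of the ligase, was at 242, 273, 307, 222 and 224 CPM in the LO group at 12 weeks and at 216, 216, 199, 213 and 214 CPM at 32 weeks, with every older mouse lower. Its log2 fold change with time was −0.26 in LO (SE 0.109; edgeR quasi-likelihood, Benjamini-Hochberg adjusted p = 0.17), −0.13 in SO and 0.02 in PF. At 32 weeks the PF mice had 172, 248, 270, 279 and 228 CPM and the SO mice 206, 232, 217, 225 and 198 CPM. The log2 fold change of Sel1l between them was 0.17 (SE 0.097; edgeR quasi-likelihood, Benjamini-Hochberg adjusted p = 0.541), and without PF mouse 1 it was 0.26 with an adjusted p of 0.03 in DESeq2, in a range of 0.03 to 0.763 over 28 alternatives in edgeR and DESeq2.

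After 12 weeks of feeding, the log2 fold changes of the members between lard and soybean oil ran from −0.13 to 0.19, with SE up to 0.207. LO mice had the highest mean of 6 of the 9 tested members (Ern1, Xbp1, Dnajb9, Herpud1, Syvn1 and Sel1l) and the lowest of Edem1, Derl3 and Sdf2l1. Some of these gaps were smaller than their SE. Between LO and SO these were Ern1 (log2 fold change 0.07), Edem1 (−0.00) and Sel1l (0.10), and between PF and LO Xbp1 (−0.04). The comparisons of LO with PF and with SO use the same LO mice, so they are not independent.

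Between PF and SO at 12 weeks, 0 of 9 members had an adjusted p under 0.05 (edgeR quasi-likelihood, Benjamini-Hochberg), as did 0% of all genes tested. By unadjusted p under 0.05 it was 0 members against 7.99% of all genes, and by DESeq2 0 members against 1.31%. The log2 fold changes ran from −0.13 (Ern1) to 0.19 (Sdf2l1). Between PF and LO at 12 weeks, the counts were 0 of 9 in edgeR (quasi-likelihood, Benjamini-Hochberg; 0% of all genes), 4 by unadjusted p under 0.05 (9.24% of all genes) and 1, lower in PF, in DESeq2 (0.389% of all genes lower). The 4 were Dnajb9 and Herpud1, lower in PF, and Derl3 and Sdf2l1, higher in PF. All PF mice were below all LO mice for 2 members, Dnajb9 and Syvn1 (1.37% of all genes). Between LO and SO at 12 weeks, 0 of 9 members passed in edgeR (quasi-likelihood, Benjamini-Hochberg; 0% of all genes) and 0 in DESeq2 (0%), with Dnajb9 and Herpud1 higher in LO as the 2 members at unadjusted p under 0.05 (2.52% of all genes higher).

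After 32 weeks the PF mice held the highest mean of each member except Ern1 and Ern2, as they already had at 12 weeks for Edem1, Derl3 and Sdf2l1. LO mice lay between the PF and SO means for each of these members except Sel1l, which was lowest in LO. The differences of PF from SO and from LO share the PF mice and are not independent.

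Between PF and SO at 32 weeks, 0 of 9 members had an adjusted p under 0.05 (edgeR quasi-likelihood, Benjamini-Hochberg), as did 0% of all genes tested. By unadjusted p under 0.05, 6 members were higher in PF (Xbp1, Dnajb9, Herpud1, Edem1, Derl3 and Sdf2l1) against 5.71% of all genes, and DESeq2 called 3 higher (Xbp1, Dnajb9 and Herpud1) against 0.413%. With 1 mouse left out in turn, the DESeq2 call held in 3 of 10 refits for Dnajb9 (adjusted p 0.0313 to 0.154), in 3 for Herpud1 (0.00458 to 0.192) and in 2 for Xbp1 (0.00287 to 0.144). Every PF mouse was above every SO mouse for 1 member, Dnajb9 (0.974% of all genes). Of the 9 members 8 had a log2 fold change above 0, with a median of 0.28, while 49.3% of all genes were higher and their median was −0.00. Between PF and LO at 32 weeks, 0 of 9 members passed in edgeR (quasi-likelihood, Benjamini-Hochberg; 0% of all genes) and 0 in DESeq2 (0.585%), with 2 members, Dnajb9 and Herpud1, higher at unadjusted p under 0.05 (4.48%). All PF mice were above all LO mice for 1 member, Herpud1 (0.432% of all genes). Between LO and SO at 32 weeks, 0 of 9 members passed in edgeR (quasi-likelihood, Benjamini-Hochberg; 0% of all genes), 0 in DESeq2 (0.0234%) and 0 by unadjusted p under 0.05 (3.48%), with Xbp1 at a log2 fold change of 0.13.

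**Figure D2:**
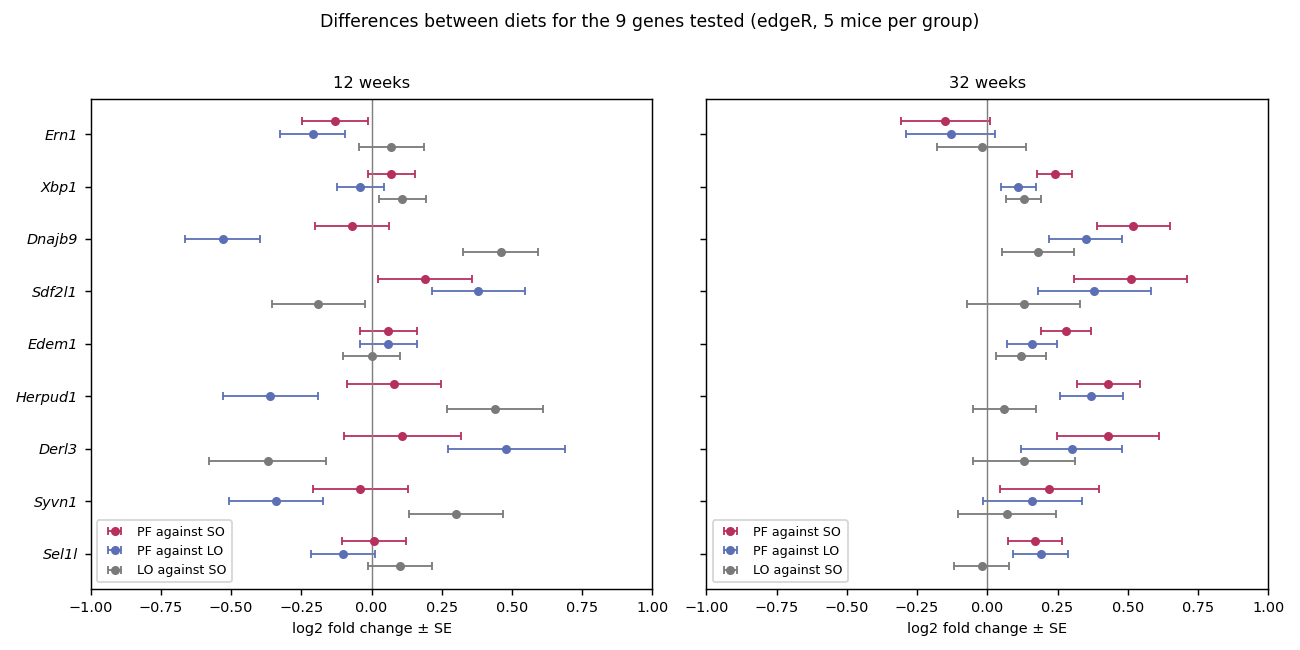
Log2 fold change between diets (x axis) of the 9 tested genes (y axis) at 12 weeks (left) and 32 weeks (right), for the 3 pairs of diets. Points are estimates and bars ± SE; Dnajb9 went from −0.53 to 0.35 between PF and LO and from −0.07 to 0.52 between PF and SO.

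Most members had lower means at 32 than at 12 weeks in the mice fed vegetable oils. In LO mice the gap was largest for Herpud1 and Syvn1, and in SO mice for Derl3 and Sdf2l1, whereas the means of Ern1 were close at both ages. In PF mice the members went both ways, with lower means of Derl3 (log2 fold change −0.41), Sdf2l1 (−0.25) and Syvn1 (−0.20) and a higher mean of Dnajb9 at the later age. For Derl3 and Sdf2l1 these gaps were at least as large as those in LO mice (−0.22 and −0.24).

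In LO mice, 2 of 9 members, Herpud1 and Syvn1, fell from 12 to 32 weeks with an adjusted p under 0.05 (edgeR quasi-likelihood, Benjamini-Hochberg), as did 0.958% of all genes tested. DESeq2 called 3 lower (Dnajb9, Herpud1 and Syvn1; 2.22% of all genes), 4 were lower at unadjusted p under 0.05 (Dnajb9, Herpud1, Syvn1 and Sel1l; 9.14%), and Herpud1, Syvn1 and Sel1l were lower in every older mouse (2.26%). All 9 members were lower, with a median of −0.24, beside −0.01 for all genes. In SO mice, 1 of 9 members, Derl3, fell by the edgeR test (quasi-likelihood, Benjamini-Hochberg; 1.22% of all genes), and 2 were lower by DESeq2 (Derl3 and Sdf2l1; 1.94%). At unadjusted p under 0.05, 4 were lower (Herpud1, Derl3, Syvn1 and Sdf2l1; 7.11%), and Derl3 was lower in every older mouse (2.3%). The median of the 9 was −0.17, beside −0.00 for all genes. In PF mice, 0 of 9 members passed in edgeR (quasi-likelihood, Benjamini-Hochberg; 0.0301% of all genes) and 0 in DESeq2 (0.295%). Dnajb9 alone had an unadjusted p under 0.05 there (4.98% of all genes in its direction), at a log2 fold change of 0.40 (SE 0.139), and was higher in every older mouse (0.753%). The median of the 9 was −0.02, beside 0.00 for all genes.

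**Figure D3:**
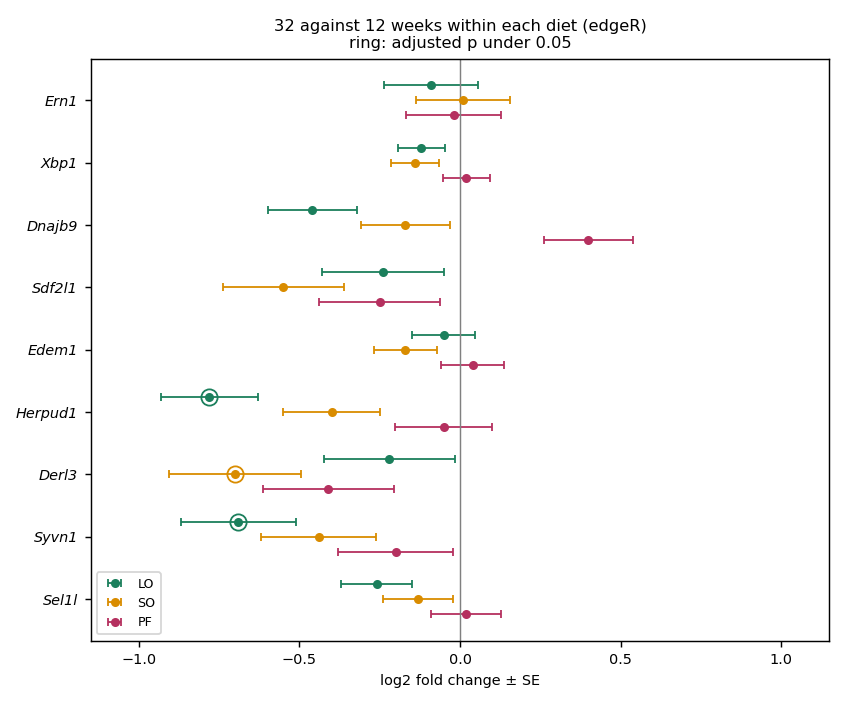
Log2 fold change from 12 to 32 weeks (x axis) of the 9 tested genes (y axis) in each diet. Points are estimates, bars ± SE, and rings mark an adjusted p under 0.05, reached by Herpud1 (−0.78) and Syvn1 (−0.69) in LO and by Derl3 (−0.70) in SO; PF estimates lay between −0.41 and 0.40.

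The difference between diets in this change over time was largest for Dnajb9. Its change with time in PF exceeded that in LO by 0.87 on the log2 scale (SE 0.197; edgeR quasi-likelihood, Benjamini-Hochberg adjusted p = 0.343) and that in SO by 0.58 (SE 0.197; adjusted p = 0.287). Herpud1 followed against LO, at 0.73 (SE 0.213; edgeR quasi-likelihood, Benjamini-Hochberg adjusted p = 0.452). Against LO, 0 of 9 members passed in edgeR (quasi-likelihood, Benjamini-Hochberg; 0% of all genes), 2 were higher at unadjusted p under 0.05 (3.61% of all genes), and DESeq2 called 1 higher, Dnajb9 (0.0292%). DESeq2 gave Dnajb9 an adjusted p of 0.0308 there, in a range of 0.00156 to 0.732 over 27 alternatives in edgeR and DESeq2. With mouse number as a block DESeq2 also called Herpud1 (adjusted p 0.0484, in a range of 0.0484 to 0.773 over 27 alternatives). Against SO, 0 of 9 passed in edgeR (quasi-likelihood, Benjamini-Hochberg; 0% of all genes) and 0 in DESeq2 (0.224%), and Dnajb9, higher, was the 1 member at unadjusted p under 0.05 (2.84% of all genes higher).

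Further genes of the circuit were examined beside the members. The 22 other XBP1 targets examined were all higher in PF than in SO mice at 32 weeks, 16 of them at unadjusted p under 0.05 (5.71% of all genes) and 4 by DESeq2 (0.413%), with a median log2 fold change of 0.25. Those with the smallest p were Kdelr3 (0.46), Serp1 (0.35) and Creld2 (0.52), and DESeq2 also called Hyou1 (0.37). Kdelr3, Serp1 and Creld2 had adjusted p of 0.0155, 0.00439 and 0.0298 by DESeq2 and 0.204, 0.222 and 0.278 by the edgeR quasi-likelihood test with Benjamini-Hochberg adjustment. Of 33 further ERAD genes 6 were lower and 27 higher, 7 of them at unadjusted p under 0.05 (5.71% of all genes), with a median of 0.10, led by Selenok (0.41), Derl1 (0.23) and Selenos (0.32), of which DESeq2 called the first 2 (0.413% of all genes). None of these lists held a gene with an adjusted p under 0.05 in edgeR (quasi-likelihood, Benjamini-Hochberg) in this comparison. The 8 partners of IRE1, of which 2 were lower, had a median of 0.08, with Zbtb8os, Ddx1 and Rtcb at 0.17, 0.15 and 0.12, and 6 substrates of IRE1-dependent decay, of which 2 were lower, had a median of 0.10, with Pmp22, Scara3 and Hgsnat at 0.39, 0.27 and 0.08. Single mice carried several of these values: without PF mouse 2, Pmp22 was at 0.22 and Scara3 at 0.04, without PF mouse 1, Rtcb was at 0.07, and without SO mouse 1, Hgsnat was at 0.05. Of the XBP1 targets and ERAD genes, Creld2 was at 0.36, Selenok at 0.33 and Selenos at 0.24 without PF mouse 1. With any 1 mouse left out, Kdelr3, Serp1 and Derl1 were at 0.41, 0.30 and 0.21 or higher.

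Genes of the parallel arms of the ER stress response were examined as well, and none passed the edgeR test between PF and SO at 32 weeks. In this comparison 8 of 9 genes of the PERK arm were higher, 3 of them at unadjusted p under 0.05 (5.71% of all genes; median 0.28; Asns 0.36, Atf4 0.30, Eif2ak3 0.20), and so were 8 of 9 genes of the ATF6 arm, 3 of them at unadjusted p under 0.05 (median 0.11; Manf 0.57, Hspa5 0.54, Hsp90b1 0.23). Of 12 mucosal secretory genes examined beside Ern2, 10 were tested and 9 of these were higher (median 0.15), among them Agr2 at 0.46 (SE 0.074) and Clca1 at 1.51 (SE 0.782), while Creb3l2 was at −0.16 (−0.07 without PF mouse 1). Clca1 spanned 2.4 to 49.8 CPM in PF mice at 32 weeks, and without PF mouse 5 its log2 fold change was 1.03. DESeq2 called Asns, Manf, Hspa5 and Agr2 of these 3 lists (0.413% of all genes).

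Over time in LO mice, 20 of the 22 XBP1 targets were lower (median −0.33), and 5 fell with an adjusted p under 0.05 (edgeR quasi-likelihood, Benjamini-Hochberg; 0.958% of all genes): Hyou1 (−0.54), Lman1 (−0.40), Serp1 (−0.33), Dnajc3 (−0.33) and Ssr3 (−0.22). In SO mice all 22 were lower (median −0.32) and 8 fell by the same test (1.22% of all genes), with Creld2 (−0.67), Hyou1 (−0.50), Serp1 (−0.33), Dnajc3 (−0.34) and Pdia5 (−0.45) at the smallest p. Edem3 (−0.43) was the 1 further ERAD gene that fell in LO (0.958% of all genes), and Derl1 (−0.23) and Selenok (−0.29) were the 2 that fell in SO (1.22%). Of the PERK arm, Ddit3 (−1.77), Eif2ak3 (−0.38) and Ppp1r15a (−0.65) fell in LO (0.958% of all genes), as did Mapk9 (−0.35) of the IRE1 partners, and the mucosal gene Agr2 fell in LO (−0.41) and in SO (−0.56). LO mouse 5 at 12 weeks carried much of the values of Ddit3, which it held at 93.9 CPM beside a mean of 10.2 CPM at 32 weeks, and of Ppp1r15a: without it they were −0.95 and −0.41, with adjusted p of 0.0958 and 0.118 (edgeR quasi-likelihood, Benjamini-Hochberg). With each mouse left out in turn, the calls in SO of Derl1, Creld2, Hyou1, Serp1 and Agr2 held in 10 of 10 refits, and each of the other calls named here was lost in at least 2. In PF mice 18 of the 22 XBP1 targets were lower, 6 of them at unadjusted p under 0.05 (5.23% of all genes), with a median of −0.08, and the 33 ERAD genes had a median of −0.01. The PERK arm had a median of −0.25 in PF mice with 7 of 9 genes lower, beside −0.24 in LO and −0.21 in SO, and the ATF6 arm had −0.11 in PF, −0.17 in LO and −0.26 in SO.

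**Figure D4:**
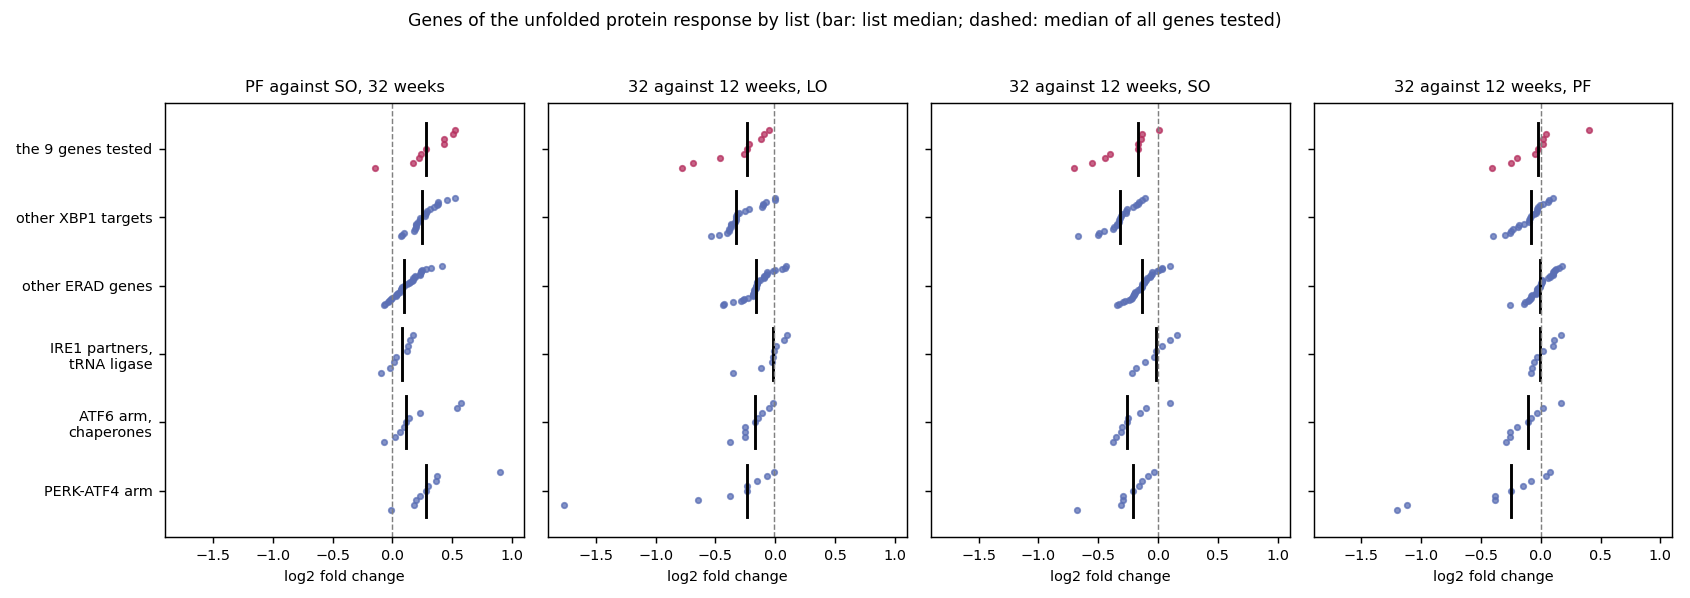
Log2 fold change of each gene (x axis) by list (y axis) for PF against SO at 32 weeks and for 32 against 12 weeks in LO, SO and PF. Points are genes, bars the median of the list and the dashed line the median of all genes tested; the XBP1 targets had medians of 0.25, −0.33, −0.32 and −0.08 in these 4 comparisons.

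Across the 30 mice the members did not move as 1 block. Of 36 pairs of members, 28 had a Pearson r above 0 and 10 an r above 0.5, with a median of 0.30. The closest pairs were Herpud1 with Syvn1 (0.79) and Derl3 with Sdf2l1 (0.78), and the farthest was Ern1 with Sdf2l1 (−0.52). Within groups the median r was 0.07. Xbp1 varied with Herpud1 at an r of 0.72 and Dnajb9 with Herpud1 at 0.68. The mean z-score of the 9 members was highest in LO mice at 12 weeks (0.87, 0.21, 1.30, −0.02 and 0.68) and lowest in SO mice at 32 weeks (−0.85, −0.87, −0.72, −0.47 and −0.93). PF mice at 32 weeks were split, with mice 2 to 4 at 0.33, 0.64 and 0.61 and mice 1 and 5 at −0.50 and −0.15.

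Outside the members, the genes whose levels followed this mean z-score most closely over the 30 mice, out of 16419 compared, were Hyou1 (r = 0.87), Lman1 (0.85), Armcx3 (0.83), Eef1akmt3 (0.83) and Serp1 (0.83). Within groups their r was 0.69, 0.71, 0.65, 0.55 and 0.59. Xbp1 itself was closest to Dnaja3 (0.85), Nme6 (0.85) and Yrdc (0.84), and Ern1 to Arhgef12 (0.90), Diaph2 (0.88) and Deptor (0.88), none of them a gene of the lists above. Within groups the r was 0.82, 0.77 and 0.78 for Xbp1 and 0.90, 0.89 and 0.88 for Ern1.

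**Figure D5:**
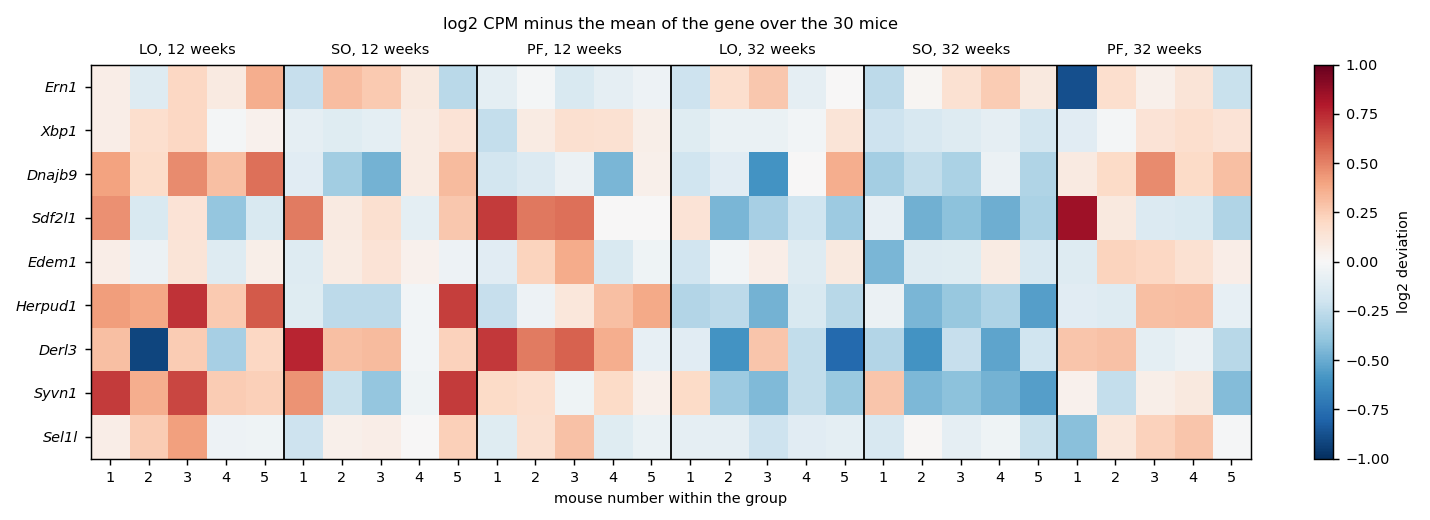
Log2 CPM of the 9 tested genes (y axis) in each of the 30 mice (x axis, by group), as the difference from the mean of the gene over all mice (colour). Differences lay between −0.92 and 0.85; most genes were below their mean in LO and SO mice at 32 weeks, and mouse 1 was the highest of its group for Sdf2l1 in all 6 groups.

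The summed level of the 10 luminal markers, most of it Sbp, was lower at 32 weeks in LO and SO mice. The sum had a mean of 243904 (LO), 277031 (SO) and 258723 CPM (PF) at 12 weeks. At 32 weeks the sum was 121213, 146518, 100993, 197865 and 161930 CPM in LO mice, 157562, 170265, 142114, 141365 and 161817 CPM in SO mice, and 227564, 121001, 255922, 295018 and 295056 CPM in PF mice. The 10 genes that took the most reads held 22.7 and 23.6% of them in LO and SO mice at 32 weeks and 29.5% in PF mice. The mean z-score of the members had an r of 0.57 with the log2 of the luminal sum over 30 mice, and of 0.08 within groups. Sbp itself fell with time in LO (−0.81) and in SO (−0.96) by the edgeR test and was the 1 luminal marker called in each. Of all genes, 0.958% and 1.22% were called lower. The 10 markers went both ways, with 4 higher and 6 lower with time in each of these diets, at medians of −0.04 and −0.10. The part of these markers in the result was not tested.

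Other cell types moved with age as well, and their part in the results of the members was likewise not tested. The 4 basal markers, led by Krt15, went in LO mice from a mean sum of 91.2 to 182 CPM. By edgeR 3 of them were called higher there (Krt5, Krt15 and Trp63; 1.74% of all genes). In SO mice the mean sum went from 94.8 to 141 CPM, with 2 called higher (Krt15 and Trp63; 5.25% of all genes). In PF mice these markers stood at 112 and 121 CPM. Their log2 sum had the strongest r of any marker list with the members' mean z-score, at −0.62, and −0.21 within groups. Markers of plasma and B cells, 12 genes led by Ighm, went from 448, 211, 556, 778 and 455 CPM to 11001, 5561, 11993, 942 and 8601 CPM in LO mice, and from 265, 323, 370, 350 and 443 CPM to 815, 3612, 5969, 4882 and 480 CPM in SO mice. They were already at 653, 3992, 6654, 178 and 311 CPM in PF mice at 12 weeks, and at 2886, 3371, 2433, 3508 and 7649 CPM at 32 weeks. With the members' mean z-score these markers had an r of −0.26, and of 0.34 within groups. The 6 adipocyte markers, led by Fabp4, summed to 341, 647, 70.1, 206 and 638 CPM in PF mice at 32 weeks and to 67.1, 49.1, 178, 41.9 and 297 CPM in SO mice.

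The remaining marker lists were present in all 6 groups. Cd3g led the 5 T cell markers, Lyz2 the 6 macrophage markers and Dcn the 5 fibroblast markers. Acta2 led the 5 smooth muscle markers and Acta1 the 4 skeletal muscle markers. In SO mice all 5 T cell markers rose with age by the edgeR test (5.25% of all genes), as did 3 of 6 macrophage markers (Adgre1, Cd68 and Lyz2). In LO mice edgeR called none of these (1.74% of all genes higher). DESeq2 called 5 of the 6 macrophage markers and 2 of the 5 fibroblast markers higher with age there (4.34% of all genes). The 4 skeletal muscle markers were higher with age in LO and SO mice (medians 3.08 and 2.86), with 0 called in edgeR or DESeq2. At unadjusted p under 0.05 there were 3 and 2 of them, beside 11.4% and 12.6% of all genes. In LO their sum was highest in mouse 1 at 32 weeks, at 414 CPM beside 58.6 to 76 CPM in the other 4. The median of the sum was 77.9 CPM at 12 weeks and 70.8 CPM at 32 weeks. Acta1 made up most of the sum in those 4 mice (44.8 to 61.9 CPM), so it does not show how the other markers changed. The part of mouse 1 in these log2 fold changes was not tested. All 5 smooth muscle markers were lower with age in each diet (medians −0.26 in LO, −0.13 in SO and −0.16 in PF), with 0 called. Between PF and SO at 32 weeks the 3 markers of other lobes had log2 fold changes above 0 (median 0.40). Of these, 1 had an unadjusted p under 0.05 (5.71% of all genes). The r with the members' mean z-score was −0.41 for the T cell and −0.32 for the macrophage markers, and 0.03 and 0.08 within groups.

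Dnajb9 shares 14 exon bases with Mir5627 and Syvn1 shares 91 with Mrpl49, each on the opposite strand, and the strand setting of the counting is not given in the sources used here. No member was called between diets at either age by the edgeR test, and each difference between diets named for DESeq2 depends on that choice of tool.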

How the data were processed

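Poly(A) RNA of the VP of 30 mice was sequenced as paired reads from stranded libraries; the authors aligned them to GRCm38.p6 with TopHat2 and deposited raw gene counts from HTSeq. Each file held 39179 gene identifiers and 5 lines that name no gene, left out here (23.68 to 32.17% of pairs). Symbols and exon lengths came from GENCODE M21 for 37607 identifiers. Counts were analysed in R 4.3.3 with edgeR 4.0.16 (limma 3.58.1): filterByExpr, TMM scaling and quasi-likelihood F tests, called at a Benjamini-Hochberg adjusted p under 0.05. Diets were compared within the 15 mice of each age (15873 genes tested at 12 weeks and 16218 at 32 weeks), and ages within all 30 mice (16605 genes). DESeq2 1.42.0 was the alternative, and the tests were tried on simulated data. Log2 CPM used a prior count of 2. Members and lists were chosen with earlier results of these data known. Named genes are the members, the 3 genes of each other pathway list with the smallest p between PF and SO at 32 weeks, list genes past the threshold (up to 5 per list and comparison), the genes most alike by r, and the most abundant gene of each marker list; Hyou1 between diets and the other called markers were named after their values were seen.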

Additional observations from a re-analysis of the deposited data

Results flagged for a closer look

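In each of the 54 sets of 5 values (9 genes, 6 groups), the gap between the outermost mouse and its neighbour was divided by the range on the log2 scale. In 4 sets this passed 0.71, which about 1 in 20 sets would do by chance, and none was tested further. Xbp1 in PF mouse 1 at 12 weeks was the lowest of its group (319 CPM against 392 to 420 CPM in the others; 0.744). Herpud1 in SO mouse 5 at 12 weeks was the highest of its group (742 CPM against 384 to 453 CPM; 0.751). Syvn1 in SO mouse 1 at 32 weeks was the highest of its group (151 CPM against 85 to 93.8 CPM; 0.83). Sel1l in LO mouse 3 at 32 weeks was the lowest of its group (199 CPM against 213 to 216 CPM; 0.812).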

How the results depend on the processing

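Over 670 refits of 29 member fold changes, 617 kept their direction and side of the threshold, 16 lost a call, 37 gained one and 0 reversed; the fall of Herpud1 in LO mice kept its call in 17 of 17 (adjusted p 5.85e-05 to 0.0483). With DESeq2 the genes called between diets were 225 (SO from PF), 75 (LO from PF) and 0 (LO from SO) at 12 weeks and 109, 85 and 6 at 32 weeks, against 0 with edgeR in all 6. With time they were 1089 in LO (448 with edgeR), 1494 in SO (1073) and 52 in PF (5), and for the changes of PF 44 beside SO and 12 beside LO (0 and 0 with edgeR). Without mice of number 1, 1 gene was called for PF against SO at 12 weeks and 0 with time in PF. With all 6 groups in one fit, 2 were called for PF against LO at 12 weeks and 2 at 32 weeks. With only the groups compared, 1 was called for LO against SO at 32 weeks, 57 with time in LO and 0 in PF, and with no filter 0 with time in PF. Leaving out each mouse in turn gave 0 to 131 genes for PF against SO at 12 weeks, 0 to 1 for PF against LO at 12 weeks, 0 to 1 for PF against SO at 32 weeks, 47 to 1043 with time in LO, 226 to 1556 in SO, 0 to 7 in PF and 0 to 3 for the change of PF beside SO. The causes were not tested. Mouse numbers as a whole did not meet the bar for pairing, though number 1 stood apart (mean r 0.426, against 0.002 to 0.092 for numbers 2 to 5): 75 same-number pairs had a mean r of 0.122 and 39 were above 0.1, against −0.029 for different numbers. With the number as a block, 0 genes were called between diets and for the changes, 668 with time in LO, 1224 in SO and 6 in PF; among members edgeR then also called Dnajb9 in LO (0.0335) and Sdf2l1 in SO (0.00971) with time, and DESeq2 Sdf2l1 for PF against LO at 12 weeks (0.0194), Sdf2l1 and Edem1 for PF against SO at 32 weeks (0.0231 each), Syvn1 with time in SO (0.0332) and Herpud1 for the change of PF beside LO (0.0484).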
